A study of Arabidopsis thaliana with 32 samples.

Results

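The 7 genes described here were IAA1 (AT4G14560), IAA2 (AT3G23030), IAA3 (AT1G04240, also called SHY2), IAA4 (AT5G43700), IAA5 (AT1G15580), IAA6 (AT1G52830) and IAA19 (AT3G15540) of Arabidopsis thaliana. They were chosen by gene identifier, as members of the Aux/IAA family reported to be induced by auxin, and are 7 of 29 Aux/IAA genes and of 34262 genes in the table of transcript levels. On these loci lay 9 of 32684 m6A peaks in 7 peak lists. As a description, "strongly induced" held for IAA1, IAA5, IAA6 and IAA19 in wild type, and less for IAA2, IAA3 and IAA4, whose levels with auxin were between 1.58 and 2.54 times those with mock.

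Aux/IAA proteins are short-lived repressors of the auxin response. They bind auxin response factors (ARFs) on the promoters of auxin-responsive genes and recruit the co-repressor TOPLESS. Auxin acts as a molecular glue between an Aux/IAA protein and the F-box receptors TIR1 and AFB, which leads to ubiquitination and loss of the repressor. Many Aux/IAA genes are themselves targets of the released ARFs, so a rise of their transcripts is a widely used readout of early auxin signalling and a negative feedback on it. IAA1 to IAA4 are close relatives of each other, and IAA5, IAA6 and IAA19 form another branch. IAA3 limits root meristem size and hypocotyl growth, and IAA19, also known as MSG2, acts in tropic growth of the hypocotyl.

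Transcripts were measured by RNA-seq in whole seedlings 15 days old, with 3 libraries in each of 4 groups. These were plants labelled fip37 LEC1:FIP37 given 50 µM NAA, a synthetic auxin, for 3 h, the same genotype given mock for 3 h, wild type given NAA and wild type given mock. Libraries of the first genotype are called fip37-labelled libraries below. FIP37 belongs to the enzyme complex that adds m6A, a methyl mark on adenosines of mRNA. The label names a fip37 mutant in which the embryo promoter LEC1 drives a FIP37 copy, which limits it as a model since FIP37 is then supplied by a promoter of another stage. The m6A lists came from antibody-enriched RNA of seedlings of the same age: the receptor kinase mutant tmk4-1 with NAA for 3 h, lines 35S:FIP373A and 35S:FIP37, which express FIP37 forms from the constitutive viral 35S promoter and have no treatment in their labels, and wild type with NAA or mock for 3 h. Each of these 5 groups had 2 immunoprecipitated and 2 input libraries. The labels do not say whether replicates came from separate cultures, so p-values measure the spread between these libraries only.

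Values are RPKM, reads scaled to gene length and to the mapped reads of the library, so levels of different genes can be set side by side. Read totals were not given, but the steps of low values put the 12 libraries at 83.6% to 152% of the depth of wild-type mock replicate 1, with 22694 to 23359 genes above 0 in each. FIP37 itself (AT3G54170) was higher in fip37-labelled libraries than in wild type, with a log2 fold change of 2.64 under mock (limma adjusted p = 3.83e-05) and 2.18 under NAA (limma adjusted p = 0.000102). Values per gene do not separate reads of the FIP37 copy from those of the plant's own FIP37 gene. Every genotype comparison below is therefore a comparison of libraries with that label against libraries labelled wild type. Replicate 3 of wild-type NAA was unlike the others of its group: for 1711 genes it differed 2-fold or more from their mean, against 358 and 321 genes for replicates 1 and 2, and the summed level of 6 heat-shock genes was 211 RPKM, against 13.4 and 9.13. Calls of the 7 genes are given with and without it. For the other Aux/IAA, receptor, ARF and co-repressor genes, the calls reported below are followed by those that changed without it. Calls of FIP37, markers, overlapping genes and genes of similar profile use every library and were not checked without it. Without it 4119 genes changed with NAA in wild type, 2176 of them lower, against 1509 with every library. Green-tissue markers (4 of 4 above 0) summed to 29268 to 33124 RPKM with NAA and 28184 to 35667 with mock in fip37-labelled libraries, and to 18772 to 20125 with NAA and 23510 to 25144 with mock in wild type. Of these 4 genes, RBCS1A, RCA and CA1 were higher in fip37-labelled libraries than in wild type under both mock and NAA, and none passed limma's test with NAA in either genotype. Root markers (4 of 4 above 0) summed to 726 to 809 RPKM with NAA and 839 to 1239 with mock in fip37-labelled libraries, and to 253 to 323 with NAA and 434 to 510 with mock in wild type, but this sum was nearly all PYK10. PYK10 was higher in fip37-labelled libraries under mock (log2 fold change 1.14), while CASP1 (-2.89) and COBL9 (-0.81) were lower and EXPA7 (-0.96) did not pass the test (limma adjusted p = 0.0526). With NAA, PYK10 (-0.72) and COBL9 (-1.12) fell in wild type, and no root marker passed the test in fip37-labelled libraries. Embryo and seed markers were near 0, at 3.32 RPKM or less in sum, with OLEO1 at 0 in all libraries but 1 and CRA1 at 0 in every wild-type mock library. Green-tissue and root markers thus differed between the genotypes, the root markers in both directions, their part in the results below was not tested, and in whole seedlings fewer cells of a type and less RNA per cell cannot be told apart.

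With NAA in wild type, transcripts of IAA1, IAA2, IAA3, IAA4, IAA5, IAA6 and IAA19 rose, from a change of 1.58 times for IAA4 to 86.7 times for IAA5 in mean RPKM. All 7 passed limma's test at an adjusted p under 0.05 as higher, where 3.35% of the 18072 genes tested did. None overlapped between the NAA and mock libraries, which held for 9.64% of the genes tested in that direction. Without replicate 3 of wild-type NAA the 7 genes were again called, at 0.62 for IAA4 to 4.04 for IAA5 on the log2 scale, on a background of 10.8% of all genes tested higher. With every library, the median log2 fold change was 2.15 over the 7 genes and -0.06 over every gene tested. The genes were picked with their response known, so these counts describe the group and are no independent test of it. IAA6 passed the expression filter (a mean of at least 1 RPKM) only through its wild-type NAA libraries and so had to differ there. Its mean was 0.175 RPKM without that group, and without any filter the 7 genes were again called.

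The most responsive gene by fold was IAA5, encoding a repressor near the limit of detection without auxin. It had 19.9, 19.3 and 29.9 RPKM in the wild-type NAA libraries, against 0, 0.502 and 0.295 RPKM in the wild-type mock libraries. The steps of its values correspond to 360, 464 and 605 reads with NAA and to 0, 8 and 6 reads with mock, as the smallest whole numbers that give the deposited RPKM. On the scale of log2(RPKM + 1), which understates changes of low genes, the rise was 4.24 (SE 0.28, limma adjusted p = 7.72e-06), the third largest of all 18072 genes. IAA5 shares 48 bp with the annotated gene CYCA2;3, a cyclin, whose level moved the other way, at 3.77 ± 0.294 RPKM with NAA and 6.11 ± 0.741 RPKM with mock (log2 fold change -0.57, limma adjusted p = 0.0193).

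IAA19 and IAA1 rose nearly alike from a measurable mock level. IAA19 had 130, 113 and 149 RPKM with NAA in wild type, against 8.74, 11.2 and 11.0 RPKM with mock, a log2 fold change of 3.54 (SE 0.23, limma adjusted p = 6.88e-06). IAA1 had 242, 220 and 211 RPKM with NAA, against 16.9, 19.7 and 19.4 RPKM with mock, a log2 fold change of 3.52 (SE 0.17, limma adjusted p = 7.03e-07). In mean RPKM the change of IAA19 was 12.7 times, and the genes ranked 6 and 7 of all genes tested by log2 fold change. The lowest NAA library of either gene was far above its highest mock library.

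IAA6, a close relative of IAA19, was the lowest of the 7 genes with NAA. It had 4.12, 2.96 and 7.80 RPKM with NAA in wild type, against 0.230, 0.400 and 0.179 RPKM with mock, which correspond to 82, 78 and 173 reads and to 4, 7 and 4 reads. The log2 fold change was 2.15 (SE 0.24, limma adjusted p = 0.000317) and 3.70 with a pseudocount of 0.1 in place of 1. The third NAA library was the highest for both IAA5 and IAA6, and without it their log2 fold changes were 4.04 and 1.83.

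IAA2, IAA3 and IAA4 had the smallest rises. IAA2, the most abundant member in every group, had 617, 577 and 404 RPKM with NAA in wild type, against 191, 213 and 248 RPKM with mock (log2 fold change 1.27, SE 0.19, limma adjusted p = 0.00199). IAA3 had 45.9, 42.2 and 39.7 RPKM with NAA, against 15.2, 17.0 and 18.2 RPKM with mock (log2 fold change 1.30, SE 0.15, limma adjusted p = 0.000478). IAA4 had 117, 119 and 127 RPKM with NAA, against 69.0, 85.1 and 76.1 RPKM with mock (log2 fold change 0.65, SE 0.14, limma adjusted p = 0.0178). For IAA2 the third NAA library was the lowest, and without it the log2 fold change was 1.46. The IAA4 call was the least firm of the 7, since it was lost without the second wild-type NAA library or without the first or the third wild-type mock library, at an adjusted p of up to 0.078. IAA3 shares 640 bp with the annotated gene AT1G04230, which was at 4.18 ± 0.163 RPKM with NAA and 4.10 ± 0.148 RPKM with mock.

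**Figure D1:**
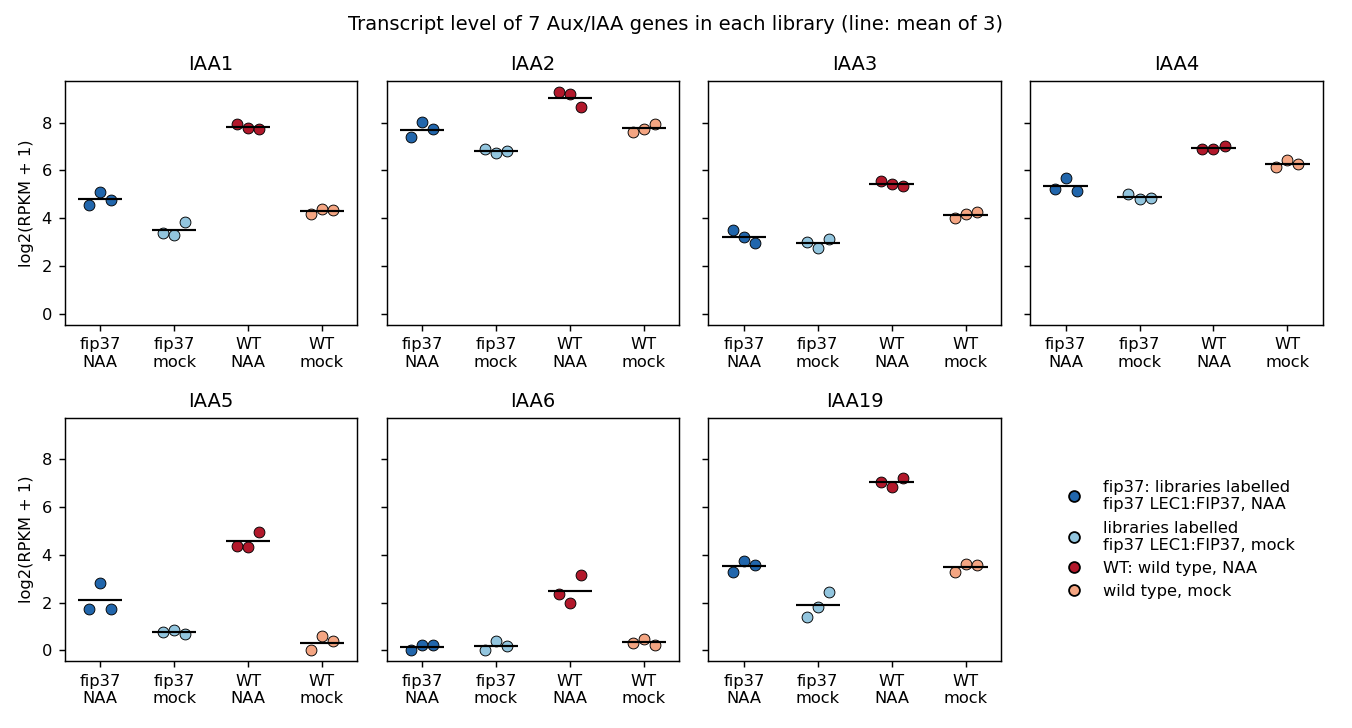
Level of each gene as log2(RPKM + 1) in the 3 libraries (points) of each of 4 groups, with a line at the mean. With NAA every wild-type point lies above the wild-type mock points, while in fip37-labelled libraries the NAA points of IAA3 and IAA6 overlap those of mock.

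In fip37-labelled libraries, NAA raised IAA19 and IAA1, and the other 5 genes did not pass the test. The background was low in this comparison, with 0.376% of all genes tested called higher and 0.0609% lower. Groups did not overlap for 5 of the 7 genes, IAA1, IAA2, IAA4, IAA5 and IAA19, where 5.28% of all genes tested were separated upwards. The median log2 fold change was 0.90 over the 7 genes and -0.04 over every gene tested.

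IAA19 had 8.69, 12.2 and 10.7 RPKM with NAA in fip37-labelled libraries, against 1.67, 2.47 and 4.42 RPKM with mock (log2 fold change 1.64, SE 0.23, limma adjusted p = 0.00672). IAA1 had 22.2, 33.5 and 26.3 RPKM with NAA, against 9.36, 8.87 and 13.3 RPKM with mock (log2 fold change 1.30, SE 0.17, limma adjusted p = 0.00544). With NAA, IAA19 in this genotype was thus close to the 8.74 to 11.2 RPKM of wild-type mock, and IAA1 was above the 16.9 to 19.7 RPKM of wild-type mock. The call of IAA19 was lost without the second NAA library of this label (limma adjusted p = 0.0516).

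IAA2 and IAA5 fell just short of the threshold. IAA2 had 165, 260 and 210 RPKM with NAA, against 116, 106 and 111 RPKM with mock in fip37-labelled libraries. Its log2 fold change was 0.90 (95% interval 0.49 to 1.31, limma adjusted p = 0.0757). IAA5 had 2.34, 6.13 and 2.35 RPKM with NAA, against 0.695, 0.784 and 0.587 RPKM with mock, or 31, 105 and 39 reads against 10, 14 and 8. Its log2 fold change was 1.35 (95% interval 0.75 to 1.96, limma adjusted p = 0.0709), and the second NAA library held most of the IAA5 reads of that group. Leaving out replicate 3 of wild-type NAA, which is not in this comparison but enters the shared estimate of spread, both were called (limma adjusted p = 0.013 for IAA2 and 0.0235 for IAA5).

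IAA4, IAA3 and IAA6 had the smallest differences with NAA in this genotype. IAA4 had 35.9, 49.8 and 33.7 RPKM with NAA, against 30.8, 27.1 and 27.4 RPKM with mock (log2 fold change 0.45, 95% interval 0.14 to 0.77, limma adjusted p = 0.306). IAA3 had 10.3, 8.35 and 6.67 RPKM with NAA, against 6.97, 5.64 and 7.78 RPKM with mock (log2 fold change 0.27, 95% interval -0.07 to 0.60, limma adjusted p = 0.765). IAA6 was at or near the limit of detection in both groups, with 0, 0.160 and 0.165 RPKM with NAA and 0, 0.306 and 0.134 RPKM with mock. These IAA6 values correspond to 6 reads over 3 libraries with NAA and 8 reads with mock, and no fold change is given from so few.

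The difference of the NAA responses was tested directly, as the log2 fold change in fip37-labelled libraries minus that in wild type. The response was smaller for IAA5, IAA1, IAA6, IAA19 and IAA3, and 1.06% of all genes tested were called in this direction and 0.636% in the other. IAA5 responded with a log2 fold change of 1.35 in fip37-labelled libraries and 4.24 in wild type, a difference of -2.89 (SE 0.39, limma adjusted p = 0.00648). For IAA1 the responses were 1.30 in fip37-labelled libraries and 3.52 in wild type, a difference of -2.22 (SE 0.24, limma adjusted p = 0.00271). For IAA19 they were 1.64 in fip37-labelled libraries and 3.54 in wild type, a difference of -1.91 (SE 0.32, limma adjusted p = 0.0155). The 95% interval of the IAA19 difference was -2.60 to -1.21, and over 17 alternative settings the difference lay between -2.14 and -1.63.

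For IAA6 the difference was -2.20 (SE 0.34, limma adjusted p = 0.0116), with NAA reads of 0, 3 and 3 in fip37-labelled libraries and of 82, 78 and 173 in wild type. Its size rests on the pseudocount, since IAA6 was near 0 reads in fip37-labelled libraries, and it was -3.86 with a pseudocount of 0.1 (limma adjusted p = 0.0458). IAA6 passed the expression filter only through wild-type NAA, so a smaller response in fip37-labelled libraries was fixed by the filter. For IAA3 the difference was -1.03 (SE 0.22, limma adjusted p = 0.0395). The IAA3 call was lost in 14 of 17 alternative settings, with adjusted p between 0.0119 and 0.105, and that of IAA19 with a pseudocount of 0.1 (limma adjusted p = 0.0525). IAA2 and IAA4 gave differences of -0.37 (95% interval -0.95 to 0.21, limma adjusted p = 0.518) and -0.20 (95% interval -0.65 to 0.24, limma adjusted p = 0.677). The intervals of IAA2 and IAA4 do not reach the differences of IAA1, IAA5, IAA6 and IAA19, though they do not show that NAA acted alike in both genotypes. Without the third wild-type NAA library the same 5 genes were called, with IAA5 at -2.69, IAA1 at -2.26, IAA6 at -1.87, IAA19 at -1.81 and IAA3 at -1.08, on a background of 6.48% of all genes tested in this direction.

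**Figure D2:**
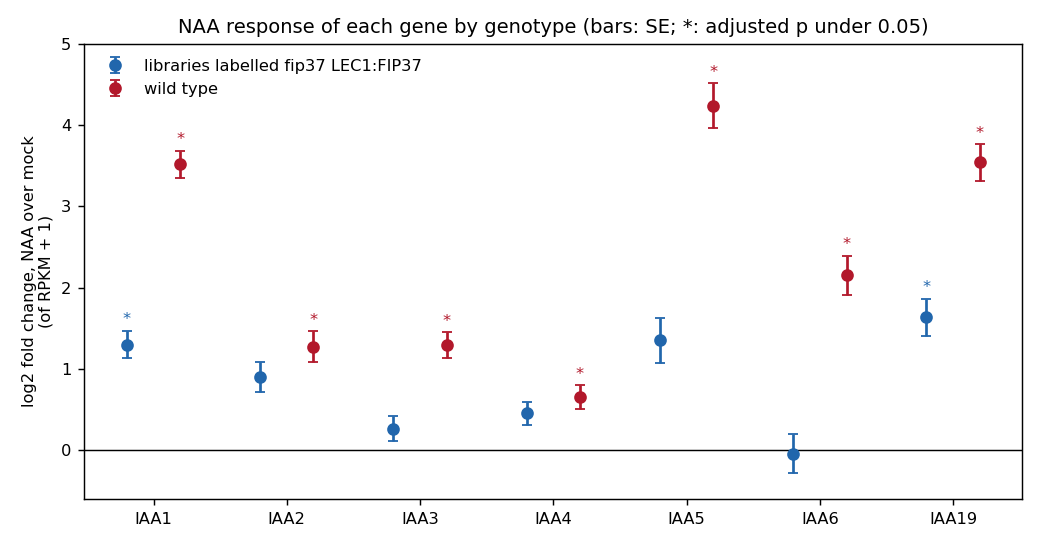
Log2 fold change of RPKM + 1 with NAA over mock for each gene, in fip37-labelled libraries (left point) and in wild type (right point), with SE bars from limma and an asterisk where the adjusted p was under 0.05. The 2 points lie apart for IAA1, IAA3, IAA5, IAA6 and IAA19 and close together for IAA2 and IAA4.

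Without auxin, 5 of the 7 genes were already lower in fip37-labelled libraries than in wild type. This genotype comparison had a wide background, with 23.5% of all genes tested lower and 15.3% higher under mock. IAA19 stood at 2.85 ± 1.42 RPKM in fip37-labelled libraries and 10.3 ± 1.36 RPKM in wild type (SD, n = 3 each), a log2 fold change of -1.61 (SE 0.23, limma adjusted p = 0.000207). IAA4 stood at 28.4 ± 2.04 RPKM in fip37-labelled libraries and 76.7 ± 8.07 RPKM in wild type (log2 fold change -1.40, limma adjusted p = 2.76e-05). IAA3 stood at 6.80 ± 1.08 RPKM in fip37-labelled libraries and 16.8 ± 1.48 RPKM in wild type (log2 fold change -1.19, limma adjusted p = 0.000121).

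For IAA2 and IAA1 the gap was smaller. IAA2 stood at 111 ± 5.13 RPKM in the fip37-labelled mock libraries and 217 ± 28.4 RPKM in wild-type mock (log2 fold change -0.96, limma adjusted p = 0.00189). IAA1 stood at 10.5 ± 2.44 RPKM in fip37-labelled mock libraries and 18.7 ± 1.51 RPKM in wild-type mock (log2 fold change -0.79, limma adjusted p = 0.00313). The libraries of the 2 genotypes did not overlap for these 5 genes, where 36.5% of all genes tested were separated downwards. Unlike the rest, IAA5 was at 0.688 ± 0.0987 RPKM in fip37-labelled libraries and at 0, 0.502 and 0.295 RPKM in wild type. Its 3 fip37-labelled libraries, with 32 reads in sum, were above those of wild type, with 14 reads in sum, where 25.9% of all genes tested were separated upwards, but the log2 fold change of 0.43 did not pass the test (95% interval -0.17 to 1.04, limma adjusted p = 0.237). For IAA6 the 2 genotypes overlapped under mock, with 8 reads in sum in fip37-labelled libraries and 15 in wild type, too few for a fold change to be given.

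With NAA the gap between the genotypes covered the 7 genes, on a background of 24.6% of all genes tested lower and 19.2% higher. No gene of the 7 overlapped between the NAA libraries of the 2 genotypes, where 25.9% of all genes tested were separated in this direction. IAA19 averaged 10.6 ± 1.78 RPKM with NAA in fip37-labelled libraries and 131 ± 17.8 RPKM with NAA in wild type (SD, n = 3 each; log2 fold change -3.52, limma adjusted p = 1.01e-06). IAA1 averaged 27.3 ± 5.73 RPKM in fip37-labelled libraries and 224 ± 16.0 RPKM in wild type (log2 fold change -3.01, limma adjusted p = 4.00e-07). IAA5 averaged 3.61 ± 2.19 RPKM in fip37-labelled libraries and 23.0 ± 5.97 RPKM in wild type (log2 fold change -2.45, limma adjusted p = 3.60e-05). These 3 genes and IAA6, at -2.35 (limma adjusted p = 1.74e-05), had the largest gaps. IAA6 passed the expression filter only through wild-type NAA, so it had to be lower here and adds no support of its own.

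IAA3 followed with a log2 fold change of -2.22 between the genotypes under NAA (limma adjusted p = 1.52e-06), at 8.43 ± 1.80 RPKM in fip37-labelled libraries and 42.6 ± 3.14 RPKM in wild type. IAA4 averaged 39.8 ± 8.78 RPKM in fip37-labelled libraries and 121 ± 5.33 RPKM in wild type (log2 fold change -1.60, limma adjusted p = 7.57e-06). IAA2 averaged 211 ± 47.4 RPKM in fip37-labelled libraries and 533 ± 113 RPKM in wild type (log2 fold change -1.33, limma adjusted p = 0.000174). For IAA2 and IAA4 these gaps can be set beside those under mock, of -0.96 and -1.40. Without replicate 3 of wild-type NAA the 7 genes were again called under NAA, at -3.42 for IAA19 to -1.52 for IAA2 on the log2 scale. The background was then 30.8% of all genes tested lower. The comparisons under mock and under NAA use different libraries of both genotypes, but each shares its libraries with a comparison of NAA against mock above.

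The order of the 7 levels changed with auxin in wild type. With NAA it ran IAA2, IAA1, IAA19, IAA4, IAA3, IAA5 and IAA6, and with mock it ran IAA2, IAA4, IAA1, IAA3, IAA19, IAA6 and IAA5. Neighbours whose libraries overlapped were IAA19 and IAA4 with NAA, and IAA1 and IAA3 as well as IAA6 and IAA5 with mock. In fip37-labelled libraries it ran IAA2, IAA4, IAA1, IAA19, IAA3, IAA5 and IAA6 with NAA, where IAA19 and IAA3 overlapped. With mock in that genotype it ran IAA2, IAA4, IAA1, IAA3, IAA19, IAA5 and IAA6 with no overlap of neighbours. IAA1 was above IAA4 in the wild-type NAA libraries, while IAA4 was above IAA1 in the other groups.

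Summed over the 7 genes, fip37-labelled libraries held 244, 370 and 289 RPKM with NAA and 166, 151 and 165 RPKM with mock. Wild type held 1176, 1094 and 968 RPKM with NAA and 302, 347 and 373 RPKM with mock. The sum with NAA in fip37-labelled libraries was thus in the range of wild-type mock or below it. IAA2 made up 67.5% to 72.4% of the sum with NAA and 67.4% to 70.1% with mock in fip37-labelled libraries. In wild type it made up 41.7% to 52.8% with NAA and 61.5% to 66.4% with mock. IAA1 took 20.1% to 21.8% of the sum in wild-type NAA libraries, against 5.21% to 5.67% in wild-type mock libraries.

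**Figure D3:**
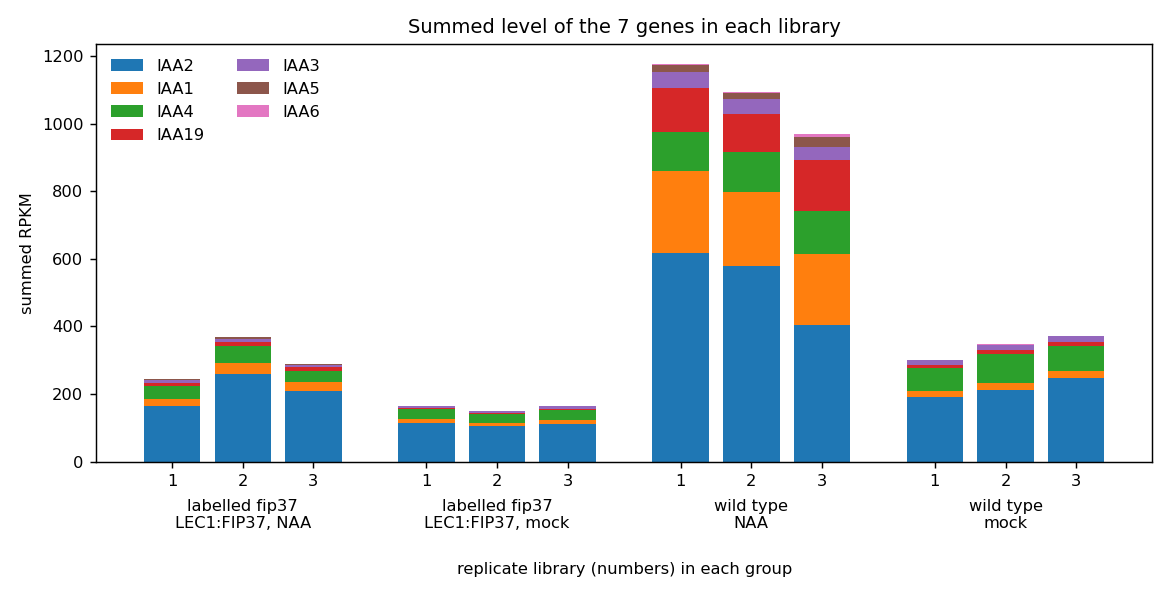
Summed RPKM of the 7 genes in each of 12 libraries, with the part of each gene stacked in colour. The wild-type NAA bars stand at 968 to 1176 RPKM, and the bars of the other 3 groups at 373 RPKM or less.

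Ratios between relatives, as the RPKM of one in percent of the other, do not depend on how a library was scaled. IAA1 stood at 12.5% to 13.5% of IAA2 with NAA and 8.06% to 11.99% with mock in fip37-labelled libraries, and at 38.1% to 52.1% with NAA and 7.84% to 9.22% with mock in wild type. The NAA libraries were thus above the mock libraries in both genotypes, by more in wild type. IAA3 stood at 31.2% to 39.2% of IAA4 with NAA and 19.9% to 23.9% with mock in wild type, while its NAA range of 16.7% to 28.6% and mock range of 20.8% to 28.4% overlapped in fip37-labelled libraries. IAA5 stood at 21.9% to 50.1% of IAA19 with NAA and 13.3% to 41.7% with mock in fip37-labelled libraries. In wild type IAA5 stood at 15.3% to 20.1% of IAA19 with NAA, and at 0%, 4.50% and 2.68% with mock on 0, 8 and 6 IAA5 reads. The IAA5 share was thus higher in fip37-labelled libraries than in wild type under either treatment, at a low level of IAA5 except in wild-type NAA.

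Of the 22 other Aux/IAA genes, 17 passed the expression filter, and IAA15, IAA31, IAA32, IAA33 and IAA34 did not. With NAA in wild type 8 of the 17 rose and 0 fell, and 10 and 2 had an unadjusted p under 0.05. Without replicate 3 of wild-type NAA, IAA16 was called as well. Their median log2 fold change was 0.56. The largest rises were those of IAA29, with 81.9 ± 8.55 RPKM with NAA and 11.9 ± 2.69 RPKM with mock (log2 fold change 2.70, limma adjusted p = 1.55e-05), and of IAA30, with 17.3 ± 7.97 RPKM with NAA and 2.65 ± 0.141 RPKM with mock (log2 fold change 2.25, limma adjusted p = 0.000317). IAA13, IAA11, IAA9 and IAA17 followed with log2 fold changes of 1.07, 1.00, 0.99 and 0.78. IAA29 and IAA30 thus changed more than IAA2, IAA3 and IAA4 by this measure. They were also above IAA6, at 2.15, a low gene whose change this scale understates.

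In fip37-labelled libraries, 4 of these 17 genes rose with NAA and 0 fell (5 and 1 at an unadjusted p under 0.05), with a median log2 fold change of 0.28. They were IAA30 (1.79), IAA29 (1.70), IAA13 (1.23) and IAA11 (0.84), and IAA9 was called as well without replicate 3 of wild-type NAA. The difference of the NAA responses passed limma's test for 0 of the 17, with 1 larger and 4 smaller at an unadjusted p under 0.05. That count rested on the third wild-type NAA library, since without it IAA10, IAA14 and IAA29 had a smaller response in fip37-labelled libraries and IAA20 a larger one. The background was then 6.48% of all genes tested with a lower difference and 5.87% with a higher one. For IAA29 the 95% interval of the difference was -1.60 to -0.39 (limma adjusted p = 0.0946) with every library, and for IAA13 it was 0.16 (SE 0.19, limma adjusted p = 0.721).

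**Figure D4:**
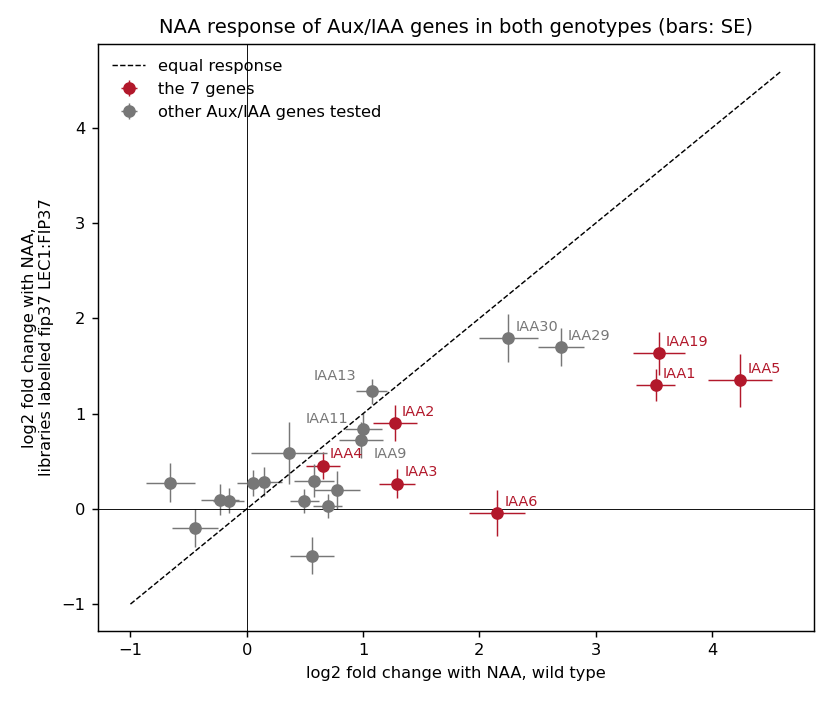
Log2 fold change with NAA in wild type (horizontal axis) and in fip37-labelled libraries (vertical axis) for the 7 genes and the 17 other Aux/IAA genes tested, with SE bars. The 7 genes lie below the dashed line of equal response, from -0.20 for IAA4 to -2.89 for IAA5. The 17 other genes lie on both sides of it, from -1.05 for IAA10 to 0.93 for IAA27, with IAA13 slightly above it.

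Between genotypes, 1 of the 17 other Aux/IAA genes was higher and 10 were lower in fip37-labelled libraries under mock, and 2 were higher and 9 lower under NAA. Over all genes tested, 15.3% were higher and 23.5% lower under mock, and 19.2% higher and 24.6% lower under NAA. The higher ones of the 17 were IAA26, at 0.77 under mock and 1.10 under NAA, and IAA27, at 0.57 under NAA (limma adjusted p = 0.0433). Without replicate 3 of wild-type NAA the IAA27 call was lost and IAA9 and IAA11 were called lower under NAA, which gave 1 higher and 11 lower. The background without that library was 19.6% of all genes tested higher and 30.8% lower. The largest falls were those of IAA17, with log2 fold changes of -1.94 under mock and -2.51 under NAA. Relatives that lie beside the 7 genes on the chromosome were among them. IAA7, near IAA2, stood at 70.5 ± 8.93 RPKM with NAA in fip37-labelled libraries and 244 ± 21.4 RPKM with NAA in wild type (log2 fold change -1.78, limma adjusted p = 1.51e-06). IAA14, beside IAA1, stood at 1.77 ± 0.240 RPKM in fip37-labelled libraries and 8.05 ± 0.739 RPKM in wild type under NAA (log2 fold change -1.71, limma adjusted p = 2.22e-06). IAA17, beside IAA3, stood at 3.15 ± 0.865 RPKM in fip37-labelled libraries and 22.8 ± 5.85 RPKM in wild type under NAA.

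Of the 6 receptor genes TIR1 and AFB1 to AFB5, TIR1 and AFB1 fell with NAA in wild type, by 0.47 (limma adjusted p = 0.0281) and 0.54 (limma adjusted p = 0.0387) on the log2 scale, and 0 rose. Over all genes tested, 904 fell in this comparison, and 8.35% were called in either direction. Without the third wild-type NAA library AFB3 and AFB5 were called lower as well, where 12% of all genes tested were. In that setting the difference of the responses was called higher for TIR1 and AFB1, where 5.87% of all genes tested were. In fip37-labelled libraries none of the 6 passed limma's test with NAA, nor did any have an unadjusted p under 0.05. Between genotypes under mock, TIR1 and AFB1 were called lower, where 23.5% of all genes tested were. Under mock TIR1 stood at 18.1 ± 0.487 RPKM in fip37-labelled libraries and 34.8 ± 2.05 RPKM in wild type (log2 fold change -0.90, limma adjusted p = 0.000109), and AFB1 at 3.98 ± 0.238 RPKM in fip37-labelled libraries and 12.2 ± 0.532 RPKM in wild type (log2 fold change -1.40, limma adjusted p = 2.77e-05).

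Among 5 activating ARFs, ARF19 rose with NAA in wild type (log2 fold change 0.62, limma adjusted p = 0.0289), and none passed the test in fip37-labelled libraries, where 1 had an unadjusted p under 0.05. ARF5, also called MONOPTEROS, was higher under mock, with 15.8, 21.3 and 15.7 RPKM in fip37-labelled libraries and 5.47, 6.15 and 6.77 RPKM in wild type (log2 fold change 1.37, limma adjusted p = 0.000199). ARF19 and ARF7 were lower in that comparison, at -0.50 and -0.41. Of 5 co-repressor genes TPL and TPR1 to TPR4, 0 passed limma's test with NAA in either genotype, with 1 at an unadjusted p under 0.05 in wild type and 0 in fip37-labelled libraries. Under mock, TPL (-0.49) and TPR1 (-0.39) were lower in fip37-labelled libraries. Over all genes tested, 23.5% were lower and 15.3% higher in this genotype comparison. Without replicate 3 of wild-type NAA, which enters the shared spread, AFB3, ARF6 and TPR2 were also called lower under mock. The background was then 28.9% of all genes tested lower.

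Across the 12 libraries the 7 genes moved together, as a description of 4 groups and not of independent samples. They were picked with their response to auxin known, so a shared profile follows in part from the choice. The correlation of each gene with the mean standardised level of the other 6 ranged from 0.843 for IAA5 to 0.989 for IAA19. The genes outside the 7 whose profile was most like their mean were SAUR9 (Pearson's r = 0.981), AtIPCS1 (0.980), SAUR66 (0.976), WRKY39 (0.976), MAPKKK14 (0.975), SAUR10 (0.975), SAUR64 (0.975) and ACL5 (0.973). SAUR genes are another family of early auxin-responsive genes, and ACL5 is a thermospermine synthase. SAUR64 and SAUR66 have near-identical neighbours, so their reads may be split between copies. SAUR9 stood at 2.47 ± 0.425 RPKM with NAA and 1.40 ± 0.293 RPKM with mock in fip37-labelled libraries, and at 17.9 ± 1.46 RPKM with NAA and 2.68 ± 0.796 RPKM with mock in wild type. AtIPCS1 had a similar profile over a far smaller range, at 5.24 ± 0.292 RPKM with mock in fip37-labelled libraries and 8.98 ± 0.173 RPKM with NAA in wild type, so likeness of profile says nothing of the size of a change.

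Peaks of m6A lay on IAA2, IAA4, IAA5 and IAA19, and on IAA1, IAA3 and IAA6 there was none in any of the 7 lists. Enrichments, scores and q-values of peaks are the authors' values, and coordinates are those of the files on TAIR10. In wild type, peaks on IAA5 and IAA19 were listed with NAA and none on any of the 7 genes with mock. The share of all tested genes with a peak was 22.7% and 27.1% in the 2 NAA lists and 28.6% and 30.3% in the 2 mock lists. With NAA, IAA19 had a peak in both replicates, at chr3:5265247-5265523 in replicate 1 (fold enrichment 1.87, pileup 99, -log10 q 6.41) and at chr3:5265274-5265505 in replicate 2 (fold enrichment 1.69, pileup 89, -log10 q 4.08). The peak of replicate 2 spanned 232 bp, which lay within the peak of replicate 1. IAA5 had a peak in replicate 1 only, at chr1:5366100-5366321 (fold enrichment 1.87, pileup 115, -log10 q 7.45).

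These wild-type peaks were of middling rank within their lists. By fold enrichment the IAA19 and IAA5 peaks ranked 2173 and 2179 of 4469 in replicate 1, and the IAA19 peak ranked 3536 of 5367 in replicate 2. Transcript levels differed widely between the treatments whose lists are compared, with IAA19 at 131 ± 17.8 RPKM with NAA and 10.3 ± 1.36 RPKM with mock and IAA5 at 23.0 ± 5.97 RPKM with NAA and 0.502 RPKM or less with mock. A peak list holds presence or absence at a threshold. The part of transcript level in these peaks was not tested and no difference in methylation between NAA and mock is read from them. IAA2 had no peak in any wild-type list although its mean was 533 RPKM with NAA and 217 RPKM with mock. Of the 987 genes with a wild-type mean of at least 100 RPKM, 30.8% and 48.6% had a peak in the NAA lists and 32.9% and 49.4% in the mock lists.

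IAA2 had peaks in the lists of the other 3 genotypes, with 1 list per genotype, for which the peak caller was not given in the sources used here. In the case of tmk4 with NAA it was a peak at chr3:8181646-8181845 (enrichment score 5.56, rank 528 of 1865). The scores given for these 3 lists are enrichment scores, not p-values or q-values. The 35S:FIP373A list had peaks at chr3:8181596-8181795 (score 2.84, rank 1367 of 4294) and chr3:8181204-8181253 (score 2.11, rank 2699). The 35S:FIP37 list had peaks at chr3:8181596-8181795 (score 3.01, rank 1254 of 4762) and chr3:8181204-8181545 (score 1.84, rank 3782). The peak that starts at 8181596 was thus the same in both 35S lists, and it shared 150 bp with that of tmk4. IAA2 is read from the minus strand, so the peaks at the lower coordinates lie nearer its 3′ end.

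IAA4 had a peak in the tmk4 list alone, at chr5:17550479-17550528 (score 2.85, rank 1150 of 1865). The median score was 3.50 in the tmk4 list, 2.37 in that of 35S:FIP373A and 2.38 in that of 35S:FIP37, and the shares of tested genes with a peak were 6.01%, 11.3% and 12.5%. IAA2 was thus above the median of its list in each of these 3 lists, for its higher peak. Of the other Aux/IAA genes, IAA7 and IAA13 had a peak in each of the 4 wild-type lists, IAA29 and IAA30 in the second NAA list and IAA8 in both 35S lists. The wild-type lists were made per replicate, with a measure of enrichment and an assignment to genes of their own. They are not compared in number with the lists of the other 3 genotypes.

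**Figure D5:**
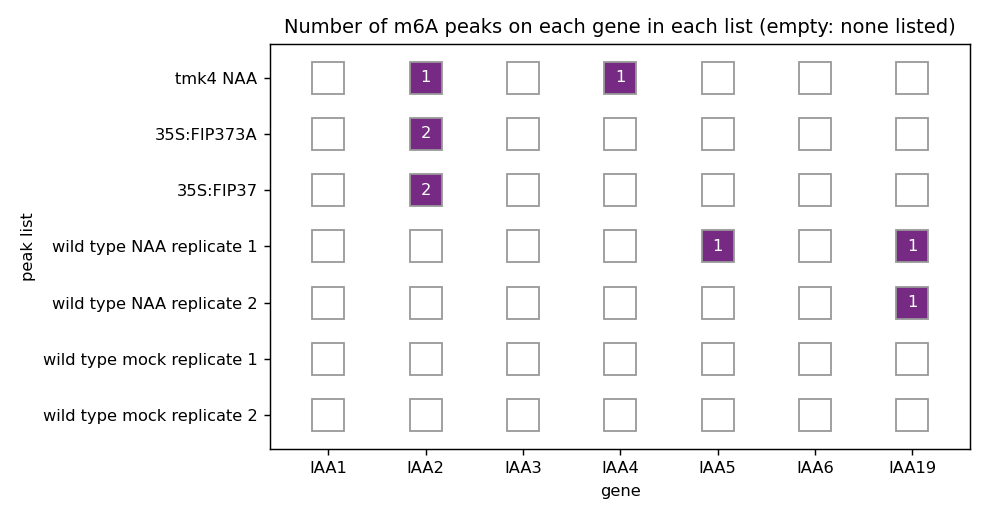
Number of m6A peaks on each of the 7 genes (columns) in each of 7 peak lists (rows), with filled squares where at least 1 peak was listed. IAA2 is filled in the lists of tmk4, 35S:FIP373A and 35S:FIP37, IAA19 in both wild-type NAA lists, and no gene in the wild-type mock lists.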

How the data were processed

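RNA-seq was measured in 12 libraries and m6A in 20 libraries. The authors deposited RPKM per gene and library. The submitters' processing notes name STAR 2.5.3a and the build TAIR10. The libraries were strand-specific, per the labels' protocols. How reads were counted, by strand or between overlapping genes, was not given in the sources used here. Per the file headers, MACS 2.2.6 made the 4 wild-type peak lists, each from 1 replicate and its input, with reads extended to 200 nt, 1 duplicate kept and q-values up to 0.05. These deposited lists hold the summit's pileup signal, a fold enrichment, and p-value and q-value as -log10. The other 3 deposited lists give an enrichment score and a p-value or q-value per peak.

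Tests across genes used limma 3.58.1 under R 4.3.3 (limma-trend, moderated) on log2(RPKM + 1), in 1 model of 12 libraries in 4 groups of 3. Of 34262 genes, the 18072 that averaged 1 RPKM or more entered the test, and p-values were adjusted over them by Benjamini-Hochberg. "Rose" and "fell" are used for an adjusted p under 0.05. RPKM columns that carry only a genotype name were taken as mock. Read totals are lacking, so counting intervals are not given. Reads of IAA5 and IAA6 are the smallest whole numbers whose ratios match the deposited RPKM, within 0.0013 of a whole read. A peak with a summit was assigned to a gene by that summit, with the TAIR10.1 annotation, which matched 32548 of the gene identifiers. For the lists without summits, the gene that the authors gave for each peak was used. In the wild-type m6A libraries 6420713 to 6714976 immunoprecipitated and 6866684 to 7459284 input tags were kept, per the file headers. Peaks and figures were handled in Python 3.11.15 with NumPy 2.4.6, pandas 2.3.3 and matplotlib 3.10.9. The scripts' statistics were tested on simulated data.

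The 7 genes and the lists of related genes were chosen with earlier results of these data known. Named from each list were at most 6 called genes with the largest changes, the 8 genes of most similar profile, and Aux/IAA genes beside the 7. The alternatives were pseudocount, filter, scaling, replicate block, fits of only the groups compared, and leaving out each library. Ratios without a pseudocount, and list and whole-table counts without replicate 3 of wild-type NAA, were added after seeing the data.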

Additional observations from a re-analysis of the deposited data

Results flagged for a closer look

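The response to NAA differed between fip37-labelled libraries and wild type for 5 of the 7 genes, by limma's test of the difference itself. In each it was smaller in fip37-labelled libraries. Over all genes tested, 1.06% were called in this direction and 0.636% in the other. The differences in log2 fold change were -2.89 for IAA5, -2.22 for IAA1, -2.20 for IAA6, -1.91 for IAA19 and -1.03 for IAA3. The IAA3 call held in only 3 of 17 alternative settings, and that of IAA19 was lost with a pseudocount of 0.1. With 3 libraries a group, no gap test for a single far value of these genes was run. IAA6 passed the expression filter only through wild-type NAA, so its smaller response in fip37-labelled libraries was fixed by the filter. The level of FIP37, the markers of green tissue and root, and the levels of TIR1 and AFB1 also differed between these genotypes, and their part in the differences was not tested.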

How the results depend on the processing

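Directions of the called genes did not reverse in any of the 623 alternative values of single genes: 600 kept their side of the threshold, 19 lost the call and 4 gained it. Under the pseudocount of 0.1 the difference of the NAA responses was called for 3 of the 7 genes instead of 5, with IAA3 and IAA19 lost. Leaving out 1 library at a time, the number of the 7 genes called was 6 to 7 for NAA in wild type, 1 to 4 for NAA in fip37-labelled libraries, 4 to 5 for the difference of the responses, 5 for the genotypes under mock and 7 under NAA. The highest count for NAA in fip37-labelled libraries, 4, came without the third wild-type NAA library (IAA2 and IAA5 gained), and the lowest, 1, without replicate 2 of fip37-labelled NAA (IAA19 lost). With the replicate number as a block, 7 were called for NAA in wild type and 2 for NAA in fip37-labelled libraries. That block gave 4 for the difference (IAA3 lost), 5 for the genotypes under mock and 7 under NAA. The 18 correlations of same-numbered libraries lay between -0.10 and 0.40 with 5 over 0.1. Between NAA and mock of replicates 1, 2 and 3 they were 0.28, -0.05 and 0.30 in wild type. For fip37-labelled libraries they were 0.40, -0.10 and 0.08. Differently numbered libraries were not compared, so these values do not settle whether the numbers pair libraries. The main model left libraries unpaired. Without replicate 3 of wild-type NAA, 4119 genes changed with NAA in wild type, 201 in fip37-labelled libraries and 2231 in the difference. Counts over every gene moved more than those of the 7 genes in other settings too: 1509 genes changed with NAA in wild type and 755 when only its 2 groups were fitted, 79 changed in fip37-labelled libraries and 125 with quantile normalization, and the difference was called for 306 genes, 192 without a filter and 493 with quantile normalization. With median-ratio scaling 872 rose and 683 fell with NAA in wild type, against 605 and 904 as reported, and quantile normalization gave 257 larger and 236 smaller responses, against 115 and 191. The count of genes with a peak, 4 of 7, was the same when at least 50% of the peak had to lie in the gene and at a q-value of 0.01 or less in the wild-type lists. This count pools the 7 lists, and the share of all genes with a peak in any list was not computed. Single lists held a peak for 6.01% to 30.3% of all genes tested, so 4 of 7 is not read as many or few. The cause of these changes was not tested. Depth limits IAA6 outside wild-type NAA, with 6 to 15 reads over 3 libraries, and IAA5 under mock, with 32 reads in fip37-labelled libraries and 14 in wild type.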
